A study of Mus musculus with 59 samples.

Results

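Gdf15, Phlda3, Zmat3, Ddit4l, Ak1 and Eda2r are induced by stress and are reported targets of the transcription factor p53. They were examined as a set of 6 genes out of 37163 genes or transcripts on the array. The set was chosen by its values in high-dose lung, where Gdf15 had one of the largest increases, so the comparison of high-dose lung with vehicle is given below as a description without a test. The 6 genes were covered by 7 probes of 55681, with 2 probes for Eda2r and 1 for each of the others.

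RNA came from lung (19 arrays), liver (20) and forestomach (20) of male Muta™Mouse, a transgenic strain that carries a lacZ reporter for mutation assays, aged about 16 weeks. Mice were gavaged daily for 28 days with benzo(b)fluoranthene (BbF), a polycyclic aromatic hydrocarbon, in olive oil at 25 (low), 50 (medium) or 100 (high) mg/kg-bw/day, and vehicle mice received olive oil alone (0 mg/kg-bw/day). Tissues were collected 72 hours after the final dose. Each group had 5 mice, numbered 1 to 5 (vehicle), 6 to 10 (low), 11 to 15 (medium) and 16 to 20 (high), except low-dose lung, which had 4 because mouse 7 has no lung array here. Lung, liver and forestomach with the same number are from 1 animal. The compound is called BbF in the sample titles and in the treatment protocol, but benz(a)anthracene in the label for exposure and in the text on the design. BbF is used here because the doses belong to it. Every value is a log2 ratio of tissue RNA (Cy5) to a reference RNA pooled from mouse cell lines (Cy3) on the same array, so 0 means the level of the reference. The samples are whole tissue, in which fewer cells of a type and less RNA per cell cannot be told apart.

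p53 is stabilised after DNA damage and activates genes for cell cycle arrest, cell death, repair and metabolism. Gdf15 is a secreted member of the TGF-beta superfamily that acts through the receptor Gfral with its co-receptor Ret, and it is also induced by the integrated stress response. Phlda3 is a pleckstrin homology domain protein that restrains Akt. Zmat3 is a zinc finger RNA-binding protein. Ddit4l is a relative of Ddit4, an inhibitor of mTOR signalling. Ak1 is a cytosolic adenylate kinase abundant in striated muscle. Eda2r is the receptor for the A2 form of ectodysplasin.

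The promoter is shown for the 2 genes that rose furthest in lung at the tested doses, Gdf15 and Phlda3, and for Ddit4l, which alone among the genes with a window in RefSeq (all but Zmat3) held the p53 consensus decamer. The 250 bases before the start are printed 5′ to 3′ on the gene's strand, from RefSeq with assembly GRCm38.p6. They lie at chr8:70632457-70632706 (minus strand) for Gdf15, at chr1:135765835-135766084 (plus strand) for Phlda3 and at chr3:137623422-137623671 (plus strand) for Ddit4l. Capitals mark a match to the p53 consensus decamer or to the core GCGTG of the aryl hydrocarbon receptor (AhR) element.
Gdf15: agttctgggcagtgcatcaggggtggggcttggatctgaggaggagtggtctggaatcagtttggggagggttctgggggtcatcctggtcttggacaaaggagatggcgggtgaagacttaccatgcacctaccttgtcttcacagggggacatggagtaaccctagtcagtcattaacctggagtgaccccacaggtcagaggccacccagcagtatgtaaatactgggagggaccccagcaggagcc
Phlda3: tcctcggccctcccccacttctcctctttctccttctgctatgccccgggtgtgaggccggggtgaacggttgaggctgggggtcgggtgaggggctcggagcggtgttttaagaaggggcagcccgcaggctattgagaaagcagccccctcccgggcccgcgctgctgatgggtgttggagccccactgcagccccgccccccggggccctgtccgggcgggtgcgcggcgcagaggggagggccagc
Ddit4l: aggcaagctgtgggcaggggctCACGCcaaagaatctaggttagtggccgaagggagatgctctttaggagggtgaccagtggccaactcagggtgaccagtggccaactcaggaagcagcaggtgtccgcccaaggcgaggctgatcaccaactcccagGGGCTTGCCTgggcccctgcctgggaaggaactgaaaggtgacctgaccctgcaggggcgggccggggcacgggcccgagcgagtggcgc
Ddit4l held 1 p53 decamer, which starts 90 bases before the transcript start, and 1 AhR core on the opposite strand. RefSeq gave 9 such windows for 5 of the 6 genes. The p53 decamer was in 1 of the 9 windows and in 7.13% of all 32851 windows of this length, and the AhR core was in 2 of the 9 and in 28.2% of all. The element TGATGNAAN bound by ATF4 was in 0 of the 9 and in 3.44% of all. All 3 were searched on both strands, and a match is a description of the letters only.

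Some facts about the arrays bear on the values below. The tissue markers Sftpc and Scgb1a1 (lung), Alb and Apoa2 (liver) and Krt13 (forestomach) were higher on every array of their own tissue than elsewhere, whereas Krt4 overlapped (at least 5.41 in forestomach and up to 5.73 elsewhere). The mean log2 ratio of these 6 markers reached 4.27 in low-dose lung (group mean 2.85 ± 0.95, SD). In vehicle, medium-dose and high-dose lungs it was at most 2.55, 2.57 and 2.55. Whether a low-dose lung sample held other tissue was not tested. Between 39.6% and 52.7% of probes were well above background in Cy5 on the lung and forestomach arrays, except for medium-dose lung mouse 13, at 68.8%. Without that array the medium-dose lung changes of Gdf15, Phlda3 and Zmat3 were 2.33, 1.19 and 0.70 and remained called (limma, adjusted p = 0.000285, 0.000144 and 0.00401). One liver slide was dim, with 10.8% to 13.0% of probes above background against 37.1% to 46.2% on the other liver arrays. It held vehicle mouse 5, low-dose mice 6 and 10, medium-dose mice 11 and 15 and high-dose mice 18, 19 and 20. On this slide the liver log2 ratios of Gdf15, Phlda3, Zmat3 and Ak1 lay nearer to 0 than on every other liver array of the same dose. Liver values are therefore also given with slide as a block and without this slide.

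Gdf15 was several-fold higher in lung at each dose, and its changes in liver and forestomach did not pass the test. In vehicle lungs the log2 ratio of Gdf15 was -2.78, -2.23, -2.28, -2.56 and -2.04 (mice 1 to 5). In low-dose lungs it was -0.63, -0.11, 0.65 and -0.15 (mice 6, 8, 9 and 10). In medium-dose lungs it was -0.09, -0.24, -0.51, -0.07 and 0.19 (mice 11 to 15). Every low- and medium-dose lung was above every vehicle lung, and the low and medium groups overlapped. In high-dose lungs the values were 1.16, 1.06, -0.50, 0.45 and 1.45 (mice 16 to 20), where mouse 18 was within the range of the medium-dose mice and the other 4 were above all medium-dose mice.

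Against vehicle, Gdf15 rose in lung by 2.32 ± 0.30 (SE) on the log2 scale at the low dose, a 4.98-fold increase (limma, adjusted p = 0.000219), and by 2.24 ± 0.28 at the medium dose, a 4.71-fold increase (adjusted p = 0.000207). The call required an adjusted p of 0.05 or less over all probes and a change of 1.5-fold or more. Both comparisons share their vehicle arrays with the comparison that chose the genes. The medium dose did not differ detectably from the low dose, with a difference of -0.08 and an interval of 2 SE from -0.67 to 0.51 (limma, adjusted p = 0.997). At the high dose the change was 3.10 ± 0.28, or 8.58-fold, ranked 4 among all genes after Cyp1a1 (4.47), Cyp1b1 (4.44) and Ahrr (3.14), which are targets of the AhR. The low-dose log2 change was 74.7% and the medium-dose change 72.1% of the high-dose change. These shares are a description only, because the high-dose lung values chose the genes. Within each of the 3 lung slides the change of Gdf15 was positive, between 1.88 and 2.69 at the low dose and between 1.91 and 2.27 at the medium dose. These and the within-slide values below rest on only 1 to 3 dosed and 1 or 2 vehicle arrays per slide. Leaving out each mouse in turn and the other settings tried moved the low-dose change between 2.08 and 2.51 and the medium-dose change between 2.12 and 2.33, with the call kept.

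**Figure D1:**
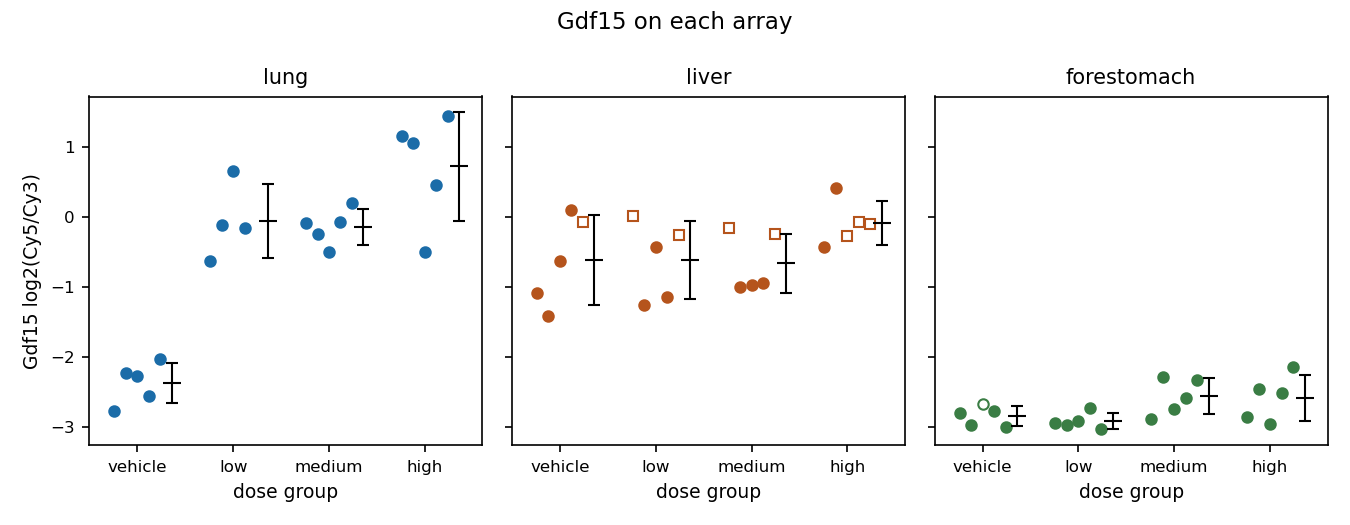
Log2(Cy5/Cy3) of Gdf15 on each array by dose group (vehicle, low, medium, high) in lung, liver and forestomach. Points are single mice in order of their number, filled where the probe was well above background, squares are arrays of the dim liver slide, and the black bars are mean ± SD. The vehicle lungs lie between -2.78 and -2.04 and all other lungs at or above -0.63.

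In liver, Gdf15 stood between -1.41 and 0.10 in vehicle mice, -1.27 and 0.02 in low-dose mice, -0.998 and -0.16 in medium-dose mice and -0.42 and 0.42 in high-dose mice. The groups overlapped, and on the dim slide Gdf15 was not well above background on any of the 8 arrays. The liver changes were 0.01 ± 0.30 (low), -0.04 ± 0.30 (medium) and 0.53 ± 0.30 (high), with limma adjusted p = 0.999, 0.990 and 0.690. Without the dim slide the high-dose change was 0.75 (adjusted p = 0.348), and with median centring of the arrays it was -0.60.

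In forestomach, Gdf15 was low in every mouse, from -3.04 to -2.15 over 20 arrays. The changes were -0.07 ± 0.14 (low), 0.28 ± 0.14 (medium) and 0.26 ± 0.14 (high), with limma adjusted p = 0.978, 0.860 and 0.630. The sign of the low-dose value turned with median centring (0.16).

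Ordered by group mean, the 4 forestomach groups (-2.92 to -2.57) and vehicle lung (-2.38 ± 0.29, SD) came lowest and overlapped in single mice. The 4 liver groups (-0.66 to -0.09) overlapped with low-dose lung (-0.06 ± 0.53) and medium-dose lung (-0.14 ± 0.26). These liver means include the dim slide, where Gdf15 was between -0.27 and 0.02 and not well above background. On the bright liver arrays Gdf15 was between -1.41 and 0.42, so the place of liver in this order is uncertain. High-dose lung (0.72 ± 0.77) had the highest mean, and its mouse 18 lay within the range of the liver values.

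Comparisons of the lung change with that of another tissue also share the vehicle lungs with the comparison that chose the genes. The change of Gdf15 in lung was compared with that in the other tissues. It exceeded the forestomach change by 2.39 ± 0.34 at the low dose (limma, adjusted p = 0.000152) and by 1.96 ± 0.33 at the medium dose (adjusted p = 0.00320). The excess over liver was of like size, 2.31 ± 0.45 and 2.28 ± 0.44, but missed the threshold (adjusted p = 0.159 and 0.0615). It passed with slide as a block (2.45, adjusted p = 0.00227, and 2.29, adjusted p = 0.00260) and without the dim liver slide (2.51, adjusted p = 0.0346, and 2.45, adjusted p = 0.00778).

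Phlda3 rose in lung with a smaller spread. Its log2 ratio was 0.06, 0.38, 0.10, 0.13 and 0.03 in vehicle mice 1 to 5. It was 0.76, 1.42, 1.42 and 1.08 in low-dose mice 6, 8, 9 and 10, and 1.32, 1.45, 1.11, 1.12 and 1.43 in medium-dose mice 11 to 15. In high-dose mice 16 to 20 it was 2.12, 2.49, 1.88, 1.81 and 1.99. No treated lung overlapped with a vehicle lung, and every high-dose lung was above every lung of the other groups. The rise was 1.03 ± 0.14 at the low dose (2.04-fold, limma, adjusted p = 0.000454) and 1.14 ± 0.13 at the medium dose (2.21-fold, adjusted p = 8.82e-05). At the high dose it was 1.91 ± 0.13 (3.77-fold, rank 22), of which the low dose reached 53.6% and the medium dose 59.8%. These shares too rest on the values that chose the genes. Within the lung slides the change was 0.54 to 1.30 at the low and 0.99 to 1.26 at the medium dose.

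In forestomach, Phlda3 lay between 0.27 and 1.40 in vehicle mice and between -0.14 and 1.28 in treated mice. The changes of -0.27 ± 0.24, -0.18 ± 0.24 and -0.01 ± 0.24 (limma, adjusted p = 0.976, 0.948 and 0.995) were within the spread, and the high-dose value was 0.33 with median centring. The lung change was larger than the forestomach change by 1.30 ± 0.30 at the low dose (limma, adjusted p = 0.0478) and 1.32 ± 0.29 at the medium dose (adjusted p = 0.0373). Both calls were near the threshold. Median centring ended them (1.26, adjusted p = 0.372, and 1.47, adjusted p = 0.0613), as did leaving out any 1 of 8 mice at the low dose (adjusted p up to 0.276) and any 1 of 9 at the medium dose (up to 0.119).

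In liver the level of Phlda3 followed the slide as well as the dose. On the bright slides it was -2.81, -2.63, -2.80 and -2.67 in vehicle mice 1 to 4, and -2.60, -2.12 and -2.52 in low-dose mice 7 to 9. It was -2.11, -2.10 and -1.97 in medium-dose mice 12 to 14, and -1.59 and -1.12 in high-dose mice 16 and 17. The low-, medium- and high-dose mice on these slides were all above the vehicle mice there. On the dim slide it was -1.56 in vehicle mouse 5, -1.08 and -0.97 in low-dose mice, -1.06 and -0.94 in medium-dose mice and -0.79, -0.79 and -0.19 in high-dose mice. All 7 treated mice thus lay above the only vehicle mouse on that slide. The share of all genes separated in this way on the liver slides was not computed. Over all arrays the changes were 0.64 ± 0.37, 0.86 ± 0.37 and 1.60 ± 0.37 from low to high, which did not pass the test (limma, adjusted p = 0.997, 0.977 and 0.227). With slide as a block the high-dose change was 1.16 (adjusted p = 0.000196) and the medium-dose change 0.64 (adjusted p = 0.0356). Without the dim slide they were 1.37 (adjusted p = 0.000154) and 0.67 (adjusted p = 0.0233), with only 2 high-dose mice left. With median centring the high-dose value turned to -0.16, a setting under which the median of all genes was -0.12.

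Zmat3 was higher in treated lungs, by less than Gdf15 and Phlda3. The log2 ratio was -0.66, -0.89, -0.71, -0.88 and -0.72 in vehicle mice 1 to 5. It was -0.45, -0.13, -0.27 and -0.40 in low-dose mice 6, 8, 9 and 10, and -0.39, 0.15, -0.25, -0.25 and 0.21 in medium-dose mice 11 to 15. In high-dose mice 16 to 20 it was 0.59, 0.84, 0.43, 0.35 and 0.50. All treated lungs were above all vehicle lungs. The medium-dose rise of 0.67 ± 0.11 (1.59-fold) passed the test (limma, adjusted p = 0.00346), and the low-dose value of 0.46 ± 0.12 did not (adjusted p = 0.0926). Within the lung slides the medium-dose change was 0.55 to 0.92. The high-dose change was 1.31 ± 0.11 (2.49-fold, rank 65).

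In forestomach, Zmat3 was between -0.17 and 0.42 in vehicle mice and between 0.39 and 0.73 at the high dose, a difference of 0.36 ± 0.14 (limma, adjusted p = 0.464). In liver the high-dose value was 0.65 ± 0.26 (limma, adjusted p = 0.587), 0.33 with slide as a block (adjusted p = 0.122), 0.53 without the dim slide (adjusted p = 0.0406, under 1.5-fold) and -0.54 with median centring.

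Ddit4l had its larger differences in lung and forestomach. In lung the log2 ratio was 0.71, 1.05, 0.47, 0.84 and 0.86 in vehicle mice 1 to 5. It was 1.39, 1.05, 0.97 and 1.48 in low-dose mice 6, 8, 9 and 10, and 1.15, 1.68, 0.90, 1.80 and 1.96 in medium-dose mice 11 to 15. In high-dose mice 16 to 20 it was 1.87, 2.47, 1.68, 2.19 and 2.65. The low and medium groups overlapped with vehicle, and the high group did not. The medium-dose value was 0.71 ± 0.19 (limma, adjusted p = 0.0645), and the low-dose value 0.44 ± 0.21 (adjusted p = 0.541). The medium-dose value passed with normexp background correction (0.70, adjusted p = 0.0400), with only probes above background (0.71, adjusted p = 0.0436) and without medium-dose mouse 13 (0.86, adjusted p = 0.0184). The high-dose change was 1.39 ± 0.19 (rank 55).

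In forestomach, Ddit4l was 0.44, 0.35, 0.63, 0.41 and 1.20 in vehicle mice 1 to 5. It was 0.93, 1.48, 1.27, 0.70 and 1.27 in low-dose mice 6 to 10, and 1.17, 1.95, 0.74, 1.13 and 1.71 in medium-dose mice 11 to 15. In high-dose mice 16 to 20 it was 1.40, 1.55, 1.75, 1.43 and 2.03. Every high-dose mouse was above every vehicle mouse, of which mouse 5 stood above the other 4. Vehicle mouse 5 and medium-dose mouse 12 were also the 2 forestomach arrays highest for striated muscle markers (mean log2 ratio 3.10 and 3.44, given with Ak1 below). A link of these markers to Ddit4l was not tested. The high-dose difference of 1.03 ± 0.21 (2.04-fold) and the trend over dose of 0.96 ± 0.20 from vehicle to high missed the threshold (limma, adjusted p = 0.0715 and 0.0837). Without vehicle mouse 5 the high-dose difference was 1.18 (adjusted p = 0.0364), and with median centring 0.82 (adjusted p = 0.0158). Within the forestomach slides it was 0.78 to 1.41. The lung and forestomach differences were close to each other, with lung minus forestomach at -0.09 ± 0.31 (low) and -0.02 ± 0.30 (medium; limma, adjusted p = 0.998 and 0.993), intervals of 2 SE of -0.71 to 0.54 and -0.62 to 0.59.

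In liver, Ddit4l was well above background on 2 of 20 arrays, those of high-dose mice 16 (0.26) and 17 (1.22). The fitted high-dose difference was 0.22 ± 0.20 (limma, adjusted p = 0.726), and 0.82 without the dim slide (adjusted p = 0.0365). No vehicle liver was above background, so the size of this difference is uncertain.

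Ak1 differed from the others in its dose pattern in lung. The log2 ratio was -0.40, -0.42, -0.67, -0.46 and -0.91 in vehicle mice 1 to 5, -0.32, -0.50, -0.88 and -0.83 in low-dose mice 6, 8, 9 and 10, and between -0.85 and -0.57 in medium-dose mice. In high-dose mice 16 to 20 it was 0.20, 0.73, -0.15, -0.08 and 0.44, all above the other lungs. The low- and medium-dose values were -0.06 ± 0.16 and -0.13 ± 0.15 (limma, adjusted p = 0.961 and 0.766), and 0.21 and 0.13 with median centring. The high-dose change was 0.80 ± 0.15 (1.74-fold, rank 233).

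In forestomach, Ak1 had 2 high mice that were also the highest for striated muscle markers. Ak1 was 0.19 in vehicle mouse 5 and 1.30 in medium-dose mouse 12, where the mean log2 ratio of 8 markers (Ckm, Acta1, Myh1, Mylpf, Tnnt3, Myh6, Actc1 and Tnnt2) was 3.10 and 3.44. On the other 18 forestomach arrays the marker mean was between 0.31 and 0.92 and Ak1 between -1.56 and 0.06. Over 20 arrays the correlation of Ak1 with the marker mean was 0.667, and over the 18 it was -0.297. The dose differences of Ak1 were 0.25 ± 0.37, 0.71 ± 0.37 and 0.40 ± 0.37 (limma, adjusted p = 0.978, 0.861 and 0.831). In lung the highest marker mean, 3.54, was in low-dose mouse 6, where Ak1 was -0.32. The marker mean was -0.28 to 2.16 in vehicle lungs and -0.28 to 1.32 in high-dose lungs. All 8 markers were lower at the high dose than in vehicle lung, with a median change of -0.57. A part of muscle content in the Ak1 values was not tested.

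**Figure D2:**
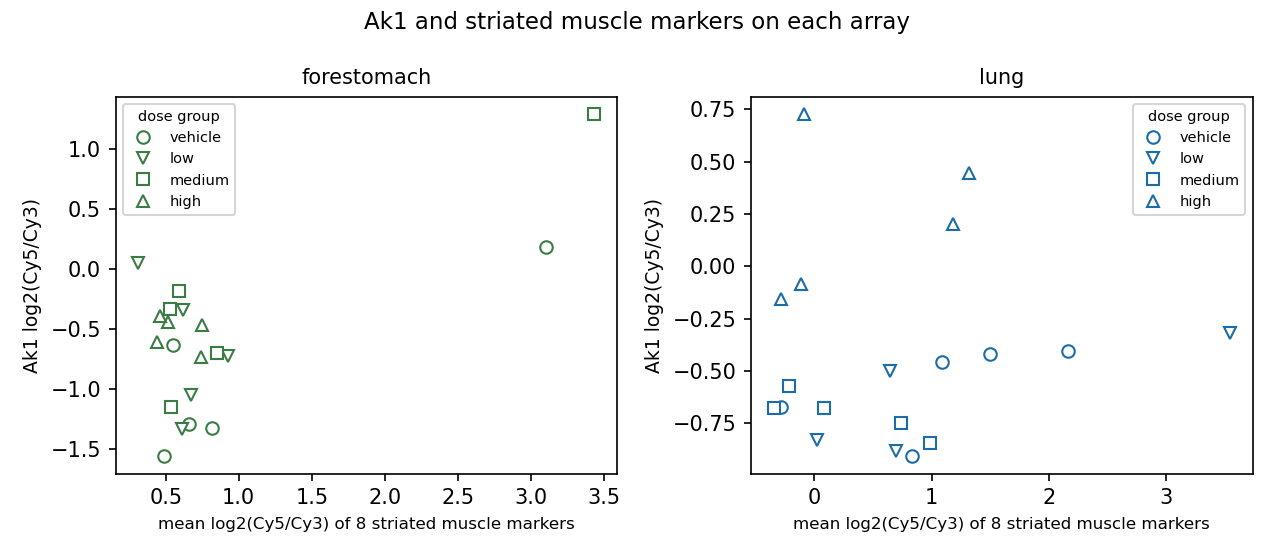
Log2(Cy5/Cy3) of Ak1 against the mean log2(Cy5/Cy3) of 8 striated muscle markers on each forestomach array (left) and lung array (right), with a symbol for each dose group. Forestomach mice 5 and 12 stand apart at marker means of 3.10 and 3.44, and the 5 high-dose lungs are the highest for Ak1 over the range of marker means.

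In liver, Ak1 was between -3.99 and -2.74 on the 12 bright arrays and between -1.23 and -0.71 on the 8 dim ones. On the bright slides it was -3.79, -3.81, -3.89 and -3.82 in vehicle mice and -2.87 and -2.74 in the 2 high-dose mice. The fitted high-dose difference was 1.65 ± 0.77 (limma, adjusted p = 0.663), 0.62 with slide as a block (adjusted p = 0.0191) and 1.02 without the dim slide (adjusted p = 0.000334).

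Eda2r was hardly measurable. Its brighter probe was well above background on 1 of 59 arrays (a high-dose lung) and the other probe on 2 (a vehicle and a high-dose lung). In lung the brighter probe was between -0.45 and -0.23 in vehicle mice, -0.29 and -0.06 in low-dose mice, -0.25 and 0.21 in medium-dose mice and -0.21 and 0.11 in high-dose mice. The differences were 0.15 ± 0.09 (low) and 0.27 ± 0.09 (medium; limma, adjusted p = 0.680 and 0.115), and the high-dose value was 0.28 ± 0.09 (rank 2812). For the other probe the low, medium and high values were 0.22 ± 0.10, 0.20 ± 0.09 and 0.40 ± 0.09 (limma, adjusted p = 0.489 and 0.315 for the first 2). In liver and forestomach every difference of the brighter probe was between -0.09 and 0.17. A probe near background gives a compressed ratio, so the size of these differences is uncertain.

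**Figure D3:**
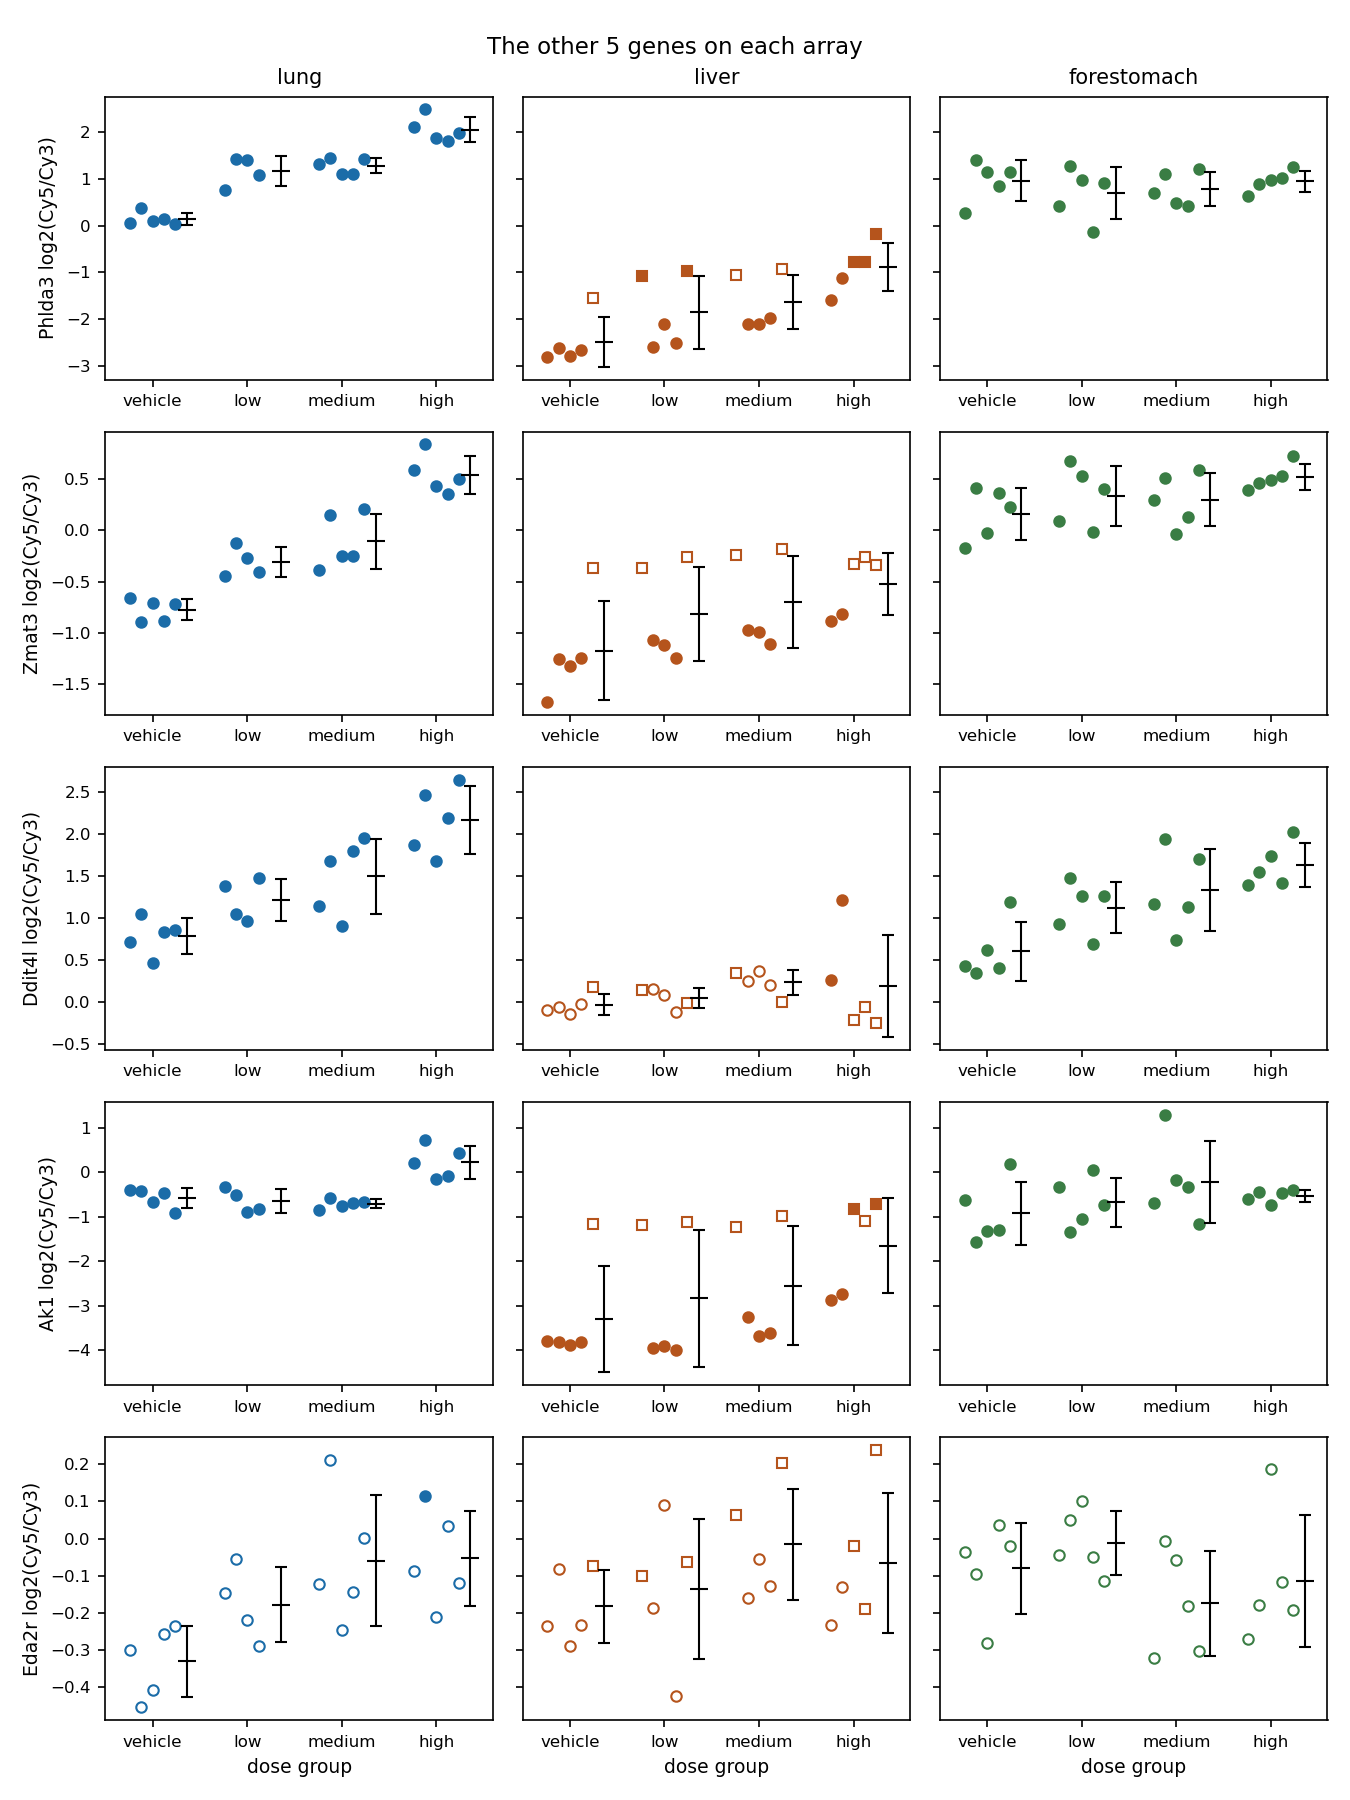
Log2(Cy5/Cy3) of Phlda3, Zmat3, Ddit4l, Ak1 and Eda2r on each array by dose group in lung, liver and forestomach, with the scale shared within a row. Points are single mice in order of their number, filled where the probe was well above background, squares are arrays of the dim liver slide, and black bars are mean ± SD. Phlda3 in lung moves from 0.03 to 0.38 in vehicle mice to 1.81 to 2.49 at the high dose, and in liver the squares lie apart from the circles for Phlda3, Zmat3 and Ak1.

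Counted over the set, 2 of 6 genes (Gdf15 and Phlda3) were called higher in lung at the low dose, against 0.409% of all genes. At the medium dose 3 of 6 (with Zmat3) were called higher, against 0.452% of all genes. The values of 3 genes at each of these doses did not overlap with vehicle (Gdf15, Phlda3 and Zmat3), as did not those of 2.63% of all genes at the low and 2.11% at the medium dose, in the direction of an increase. The median change of the 6 was 0.45 at the low and 0.69 at the medium dose, where the median of all genes was 0.0011 and -0.0011. Between the medium and the low dose in lung 0 of 6 were called, as were 0% of all genes by limma, with 0 of the 6 and 1796 of all genes at an unadjusted p of 0.05 or less.

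In liver 0 of 6 were called at the low, medium or high dose or for the trend, against 0%, 0%, 0.00538% and 0.00807% of all genes by limma. At an unadjusted p of 0.05 or less, limma gave 0, 1 and 3 of the 6 genes from low to high and 3 for the trend, and 1228, 1690, 3007 and 3361 of all genes. In forestomach the counts were also 0 of 6, against 0%, 0%, 0.0915% and 0.0807% of all genes by limma, and 1, 1, 2 and 3 of the 6 at an unadjusted p of 0.05 or less, against 1735, 2166, 3344 and 3313 of all genes. There the values of 1 of 6 genes, Ddit4l at the high dose, lay above vehicle without overlap, against 1.31% of all genes. The lung change was larger than that in forestomach for 2 of 6 genes (Gdf15 and Phlda3) at both doses, against 0.237% and 0.159% of all genes, and larger than that in liver for 0 of 6, against 0% and 0.00269%. The high-dose change in liver was larger than that in forestomach for 0 of 6, against 0.00538%.

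**Figure D4:**
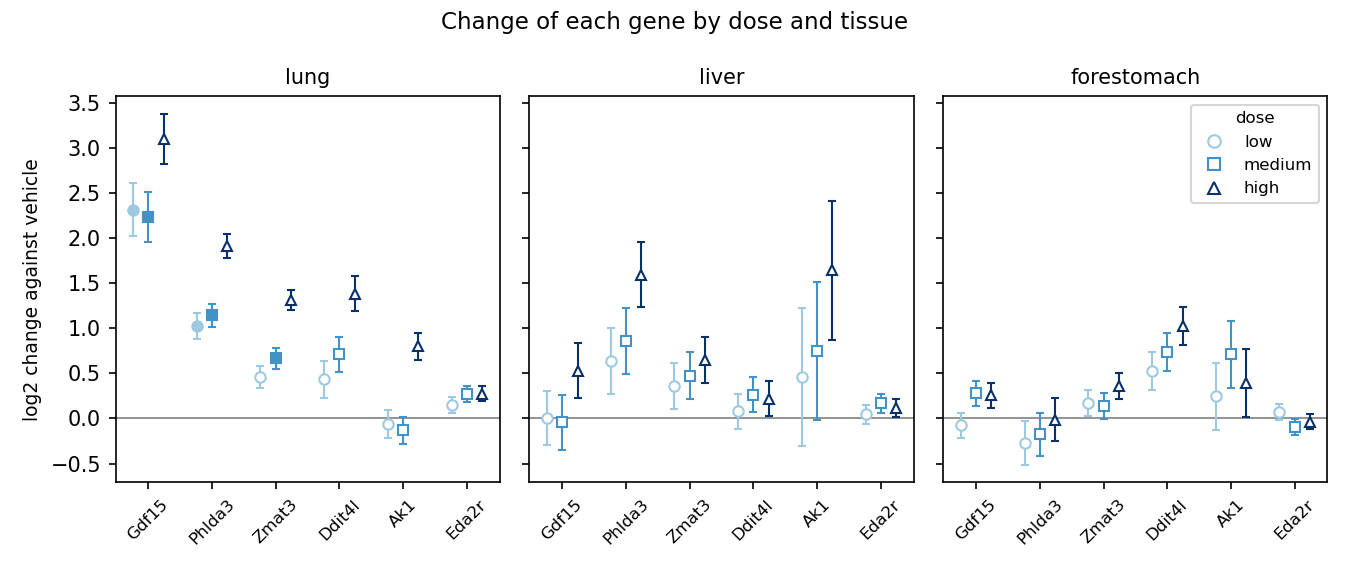
Log2 change against vehicle (± SE) of the 6 genes at the low, medium and high dose in lung, liver and forestomach. Filled symbols were called at the low or medium dose; the high dose in lung was not tested and is drawn open. Gdf15 in lung has changes of 2.32, 2.24 and 3.10, and Ak1 in lung has -0.06, -0.13 and 0.80.

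Of 30 other p53 targets, all on the array, 6 were called higher in low-dose lung and 7 in medium-dose lung, none lower. Of all genes, 0.409% and 0.452% were called higher at these doses. The median change of the 30 was 0.23 and 0.21. These lists were written with earlier results of these data known. Among 10 targets of arrest and feedback, Cdkn1a, the p21 inhibitor of cyclin-dependent kinases, rose by 1.64 ± 0.21 at the medium dose (limma, adjusted p = 0.000283) and Ccng1, cyclin G1, by 1.03 ± 0.16 (adjusted p = 0.00134), and Trp53inp1 was also called. Ppm1d, a phosphatase that opposes p53, was at 0.12 and Btg2 at -0.21, neither past the test. Among 10 targets of cell death, Bax, which permeabilises mitochondria, rose by 1.30 ± 0.13 (limma, adjusted p = 2.31e-05), Aen, an apoptosis-enhancing nuclease, by 1.01 ± 0.12 (adjusted p = 0.000104), and Tnfrsf10b was also called. The death receptor Fas was at -0.16 and Perp at -0.40, neither past the test. Among 10 targets of repair and metabolism only Rps27l was called (0.65 ± 0.09, limma, adjusted p = 0.000773), with Ddb2 at 0.29, Tigar at -0.04 and Rrm2b at -0.09.

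The medium-dose changes of Cdkn1a, Bax and Aen were larger in lung than in forestomach by 1.66 ± 0.26, 1.12 ± 0.17 and 1.07 ± 0.19 (limma, adjusted p = 0.00229, 0.00141 and 0.00669). The only one of the 30 called in forestomach was Dcxr, a carbonyl reductase, at the high dose (0.86 ± 0.15, limma, adjusted p = 0.0205). At that dose 0.0915% of all genes were called higher there. In liver none of the 30 was called over all arrays, where Cdkn1a was at 1.84 ± 0.48 at the high dose (limma, adjusted p = 0.338). With slide as a block 3 were called higher at the high dose (Cdkn1a, Mdm2 and Aen), and Cdkn1a was at 1.24 ± 0.17 (adjusted p = 0.000831). Without the dim slide 5 were (Cdkn1a, Ccng1, Trp53inp1, Bax and Tnfrsf10b). Of all 37163 genes, 2 were called higher over all arrays, 89 with slide as a block and 305 without the dim slide. The median of the 30 was 0.38 over all arrays, 0.20 and 0.26 in these settings and -0.71 with median centring.

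**Figure D5:**
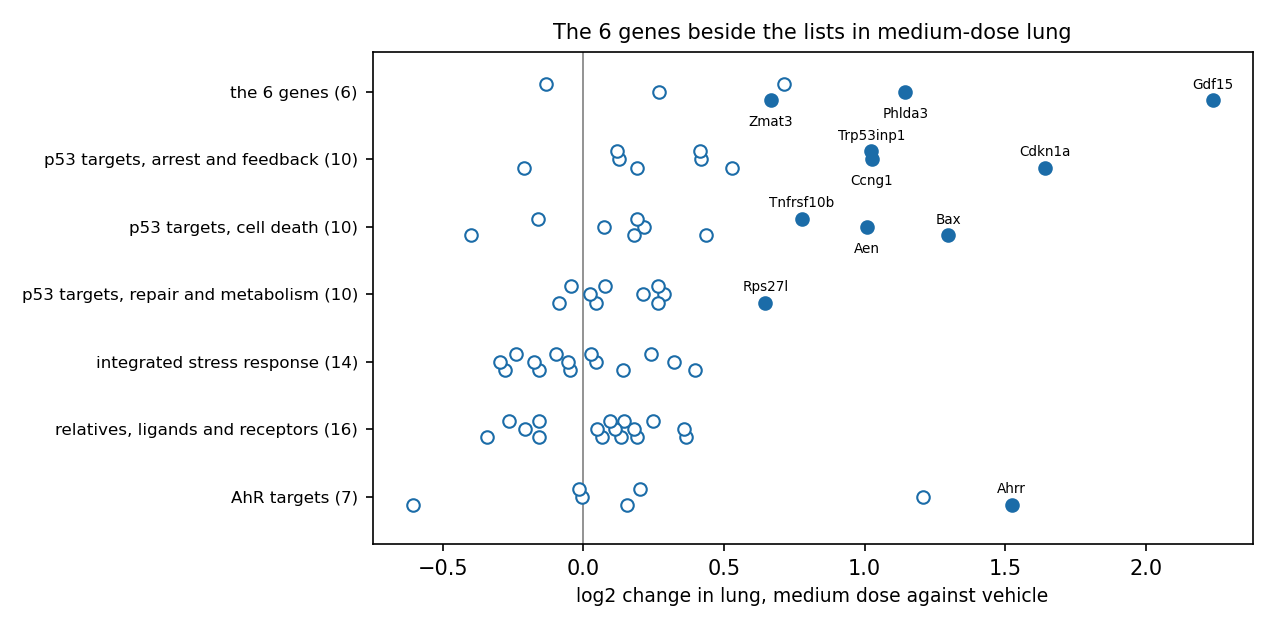
Log2 change in lung at the medium dose against vehicle for the 6 genes and for the members of 6 lists, 1 point per gene, with the number of genes in parentheses. Filled points were called and are named. Gdf15 stands furthest to the right at 2.24, and no gene of the integrated stress response list is filled.

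Gdf15 can also be induced by the integrated stress response, and 14 genes of that response are given beside it. A part of that response in the Gdf15 changes was not tested. None of the 14 was called in lung at the low or medium dose, where 0.409% and 0.452% of all genes were called higher. The median change of the 14 was -0.0021 and -0.05. The largest medium-dose values were those of Ddit3 (CHOP), at 0.40 ± 0.11 (limma, adjusted p = 0.0651), and Ppp1r15a, at 0.32 ± 0.10 (adjusted p = 0.116). The smallest were those of Atf4, at -0.30 ± 0.13 (adjusted p = 0.290), and Asns, at -0.28 ± 0.09 (adjusted p = 0.146). In high-dose liver 13 of the 14 were above vehicle with a median of 0.61, but the median was 0.06 with slide as a block, -0.04 without the dim slide and -0.66 with median centring, and none was called in any of these.

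None of 16 relatives, ligands and receptors of the 6 genes was called in any comparison of a dose with vehicle over all arrays. In medium-dose lung the largest values were those of Zmat4 (0.36) and Ddit4 (0.36) and the smallest those of Ak4 (-0.34) and Phlda1 (-0.26). The Gdf15 receptor Gfral was at 0.19 and Ret at -0.16. Of 7 AhR targets, Ahrr, a repressor of the AhR, was called in medium-dose lung (1.52 ± 0.39, limma, adjusted p = 0.0494), and Cyp1b1 was at 1.21 ± 0.68 (adjusted p = 0.457). Tiparp was at -0.01 and Aldh3a1 at -0.61, neither past the test.

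Markers of macrophages and neutrophils were examined beside the lung changes. The mean log2 ratio of 7 macrophage markers (Adgre1, Csf1r, Itgam, Lyz2, Mrc1, Marco and Cd14) was 1.81 to 2.35 in vehicle lungs and 1.91 to 2.40 in treated lungs, with no marker called at the low or medium dose. That of 3 neutrophil markers (S100a8, S100a9 and Mpo) was 2.48 to 3.55 in vehicle, 3.03 to 3.45 in low-dose, 3.16 to 4.16 in medium-dose and 3.36 to 4.09 in high-dose lungs, with none called. Their part in the changes of the 6 genes was not tested. The mean of 6 smooth muscle markers (Myh11, Actg2, Des, Cnn1, Tagln and Smtn) was 0.92 to 1.53 in vehicle lungs and 0.77 to 1.67 in treated lungs. Of the 6, 4 were higher than vehicle at the low dose (median change 0.07). At the medium and high doses 0 of 6 were higher (median change -0.19 and -0.18).

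The genes with the most similar pattern were sought among 12830 genes well above background on as many arrays as not, or more, by Pearson correlation over 59 arrays after the vehicle mean of each tissue was subtracted. These correlations describe these arrays, which share slides and doses. For Gdf15 they were Inka2 (r = 0.901), Olfr1229 (0.900), Bcl6b (0.880), Exoc4 (0.875) and Bax (0.866). For Phlda3 they were Cdkn1a (0.927), Hmg20b (0.923) and Cd34 (0.909), and for Zmat3 Cd34 (0.907), Pkn3 (0.905) and Ramp3 (0.887). For Ddit4l they were P2rx7 (0.844), Rab42 (0.798) and Zfp423 (0.765), for Ak1 Serpinb6a (0.946), Serpinb6c (0.941) and Aldoa (0.885), and for Eda2r Cdkn1a (0.681), Chst3 (0.660) and Aen (0.654). Within the set over the 19 lung arrays, Phlda3 and Zmat3 were the closest pair (r = 0.946), followed by Gdf15 and Phlda3 (0.927). Eda2r and Ak1 were the least close (0.381). Genes chosen by a shared change in these lungs correlate over them for that reason, so the lung values are a description only. The correlations of Eda2r come from a probe near background and are uncertain. Over the 20 forestomach arrays, Zmat3 and Ddit4l (0.730) and Phlda3 and Zmat3 (0.720) were the closest pairs.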

How the data were processed

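RNA from random sections of lung, liver and forestomach of the same 20 mice was labelled with Cy5 and hybridised with a Cy3-labelled universal mouse reference RNA on 59 Agilent arrays, 62976 spots each. The authors deposited scanner files with the intensity of each spot in both dyes, extracted from the scans with Feature Extraction 10.7.3.1 and not normalised (header build mm9). They also deposited a table of processed log2 ratios, which correlated with the values used here at r = 0.967 to 0.999 per array (column medians -0.041 to -0.00718; the direction matched, and its scaling was not examined further).

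Median spot intensities, without background correction, were loess-normalised within each array in limma 3.58.1 (R 4.3.3). Control spots were dropped and repeated spots averaged, leaving 55681 probes (484 values missing). Of these, 26413 matched 20018 symbols in RefSeq through their accession and 29268 did not. A gene was represented by its probe with the highest mean log2 Cy5 intensity over all arrays. Each tissue was fitted with its 4 dose groups (lmFit, eBayes), p-values were adjusted by Benjamini-Hochberg over all probes, and a gene was called where the adjusted p was at most 0.05 and the change at least 1.5-fold. Differences between tissues and a linear trend over dose were fitted likewise. Error terms are standard errors unless named SD. The procedure was tested on simulated data. The number of arrays limits the precision.

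The 6 genes and all gene lists were chosen with earlier results of these data known, as was the rule that named all 6 genes and, of each list, the 2 largest and 2 smallest changes in medium-dose lung and any gene called in liver or forestomach. Trp53inp1, Tnfrsf10b, Mdm2, Gfral and Ret are named outside this rule, chosen after their values were seen. The alternatives were normexp background correction (offset 50), median centring, the authors' log2 ratios, only probes above background, any probe of a gene, slide as a block, within-slide values, leaving out the dim liver slide, each mouse left out in turn and, between tissues, mouse as a block. The gene lists in high-dose liver under the slide settings and median centring were added after the data were seen. Arrays lay on 9 slides scanned on 6 days, each slide on 1 day and with 1 tissue. A mouse number marks the same animal in each tissue, and the deviations of its tissues from their group means correlated between -0.19 and 0.15 (lung and liver), -0.04 and 0.09 (lung and forestomach) and -0.10 and 0.15 (liver and forestomach). With mouse as a block the number of the 6 genes called was 2 for lung minus forestomach at each dose, as without it. A result on other cell type markers is not reported here.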

Additional observations from a re-analysis of the deposited data

Results flagged for a closer look

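In 3 of 72 groups of arrays, 1 mouse stood apart from the others of its group by Dixon's criterion, which chance meets in about 1 in 20 groups. They were the Phlda3 log2 ratio of vehicle mouse 2 in lung, at 0.381 where the other 4 were between 0.03 and 0.13, the Phlda3 ratio of vehicle mouse 5 in liver, at -1.557, and the Ak1 ratio of the same liver array, at -1.1546. That array lies on the dim liver slide.

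In 4 of 30 tests of a difference between tissues (limma, adjusted over all probes) the change differed. The Gdf15 change was larger in lung than in forestomach by 2.391 (low dose) and 1.956 (medium dose), and the Phlda3 change by 1.297 and 1.321. All 4 tests share the vehicle lungs with the comparison that chose the genes.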

How the results depend on the processing

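The lung calls of Gdf15 and Phlda3 at both doses and of Zmat3 at the medium dose kept direction and call under every alternative run. In medium-dose lung the count of the 6 genes called was 4 in place of 3, with Ddit4l added, with normexp, with only probes above background and without mouse 13. The other counts that changed were as follows. In liver they were 1 (medium, main 0), 2 (high, main 0) and 2 (trend, main 0) with slide as a block, and 1, 3 and 3 without the dim slide, which leaves 2 high-dose mice. The trend in liver had 1 with only probes above background. Lung minus liver had 1 at the low dose with slide as a block and 1 without the dim slide, and at the medium dose 1 with each of normexp, only probes above background, slide as a block and no dim slide. Forestomach had 1 at the high dose and 1 for the trend with median centring, and 1 at the high dose with only probes above background. Lung minus forestomach had 1 at each dose with median centring (main 2). Leaving out a mouse gave 0 to 1 in forestomach at the high dose (1 without vehicle mouse 5) and for the trend (1 without medium-dose mouse 12), and 1 to 2 for lung minus forestomach at each dose. With mouse as a block the counts were 0, 0, 2, 2 and 0 for lung minus liver (low, medium), lung minus forestomach (low, medium) and liver minus forestomach (high), and the call of no gene of the 6 changed. The causes were not tested.

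Of 549 changes of single genes outside the leave-one-out fits, 39 that were not called had the other sign under an alternative (27 of them with median centring) and no called change did. Such uncalled values were counted as moved only past 1 residual SD. Over all genes, calls higher in liver at the high dose numbered 2 (89 with slide as a block, 305 without the dim slide, 19 with only probes above background and 0 with median centring), at the medium dose 0 (44 and 148 for the first 2), and for the trend 3 (99, 371, 23 and 0, and 8 with normexp). With median centring they were 335 in medium-dose lung (main 168), 131 in high-dose forestomach (34), and 16 and 26 for lung minus forestomach (88 and 59, the latter 38 with mouse as a block). Lung minus liver moved from 0 to 42 (slide) and 16 (no dim slide) at the low dose and from 1 to 61 and 52 at the medium dose. The dim slide, with 10.8% to 13.0% of probes above background, limits what liver can show, and Eda2r was near background throughout.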
